A study of Caenorhabditis elegans with 11 samples.

Results

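The genes described here encode the nuclear part of the mitochondrial respiratory chain of *Caenorhabditis elegans*. They were chosen by WormBase symbol. Each gene was taken whose symbol starts with nuo-, ndub-, nduf-, cox-, ucr-, atp-, asb-, asg- or sdh, together with *gas-1*, *isp-1*, *cyc-1* and *mev-1*. It had to lie outside the mitochondrial chromosome and reach 10 counts in 2 or more of the 11 libraries. Of 46756 genes in the tables, 56 met this rule, and all 56 reached 10 counts in all 11 libraries. Exons of 17 of them overlap those of another gene, so that their counts may hold reads of that gene. By symbol, 21 belong to complex I, 5 to complex II, 7 to complex III, 7 are subunits of complex IV, 7 are complex IV assembly factors and 9 belong to complex V.

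The animals were wild-type N2 (Bristol) worms. On day 1 of adulthood they were placed on *Escherichia coli* HT115 carrying either an *xpo-1* RNA interference (RNAi) construct or, as control, the empty vector L4440, and day 5 worms were harvested after 96 hours of RNAi at 20°C. Both groups thus shared strain, age, food strain and temperature, and differed in the RNAi construct. *xpo-1* encodes exportin 1, which carries proteins with a nuclear export signal out of the nucleus. Polyadenylated RNA of whole worms was sequenced from unfractionated lysate (total RNA, 2 *xpo-1* RNAi and 2 control libraries) and from the monosome fraction (1 *xpo-1* RNAi and 2 control libraries) and the polysome fraction (2 *xpo-1* RNAi and 2 control libraries) of sucrose gradients. Monosome RNA is messenger RNA carrying a single ribosome, and polysome RNA carries several.

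The respiratory chain sits in the inner mitochondrial membrane. Complexes I and II feed electrons from NADH and succinate into ubiquinone, complex III passes them to cytochrome c and complex IV to oxygen, and complex V (ATP synthase) uses the proton gradient built by complexes I, III and IV to make ATP. Most subunits are encoded in the nucleus, translated in the cytosol and imported, while a few core subunits of complexes I, III, IV and V are encoded by mitochondrial DNA. In *C. elegans*, mutations or silencing of several of these genes (*mev-1*, *isp-1*, *nuo-6*, *cyc-1*) are known to alter life span, some shortening and some lengthening it.

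*xpo-1* itself had 34.1 and 35.9 CPM (read counts scaled to library size) in *xpo-1* RNAi total RNA, against 294 and 242 CPM in control total RNA (log2 fold change -2.94, SE 0.18, edgeR adjusted p 6.91e-05). It had 22.3 and 22.7 CPM in *xpo-1* RNAi polysome RNA, against 213 and 137 CPM in control polysome RNA. It had 52.3 CPM in the *xpo-1* RNAi monosome library, against 275 and 304 CPM in the control monosome libraries. No library labelled *xpo-1* RNAi reached the lowest control value of the same RNA kind. Library totals lay between 15589628 and 21828657 counts. Summed markers of germline, muscle and intestine were present in every library, and several marker lists moved with the groups. The 36 sperm markers (major sperm protein and sperm genes) summed to 15.3 and 17.7 CPM in *xpo-1* RNAi total RNA, against 373 and 1686 CPM in control total RNA. In both *xpo-1* RNAi total libraries 2 of the 36 were at 0, and none in both control ones. The 6 body wall muscle markers summed to 1315 and 1493 CPM, against 1791 and 3368 CPM, with none at 0. The 11 early embryo markers summed to 4.24 and 4.497 CPM, against 20.5 and 16.8 CPM, with 2 of the 11 at 0 in both *xpo-1* RNAi libraries and 1 at 0 in both control ones. The 20 germline markers (12948 and 12355 CPM, against 14622 and 12581 CPM) and the 8 intestine markers (35377 and 31477 CPM, against 27639 and 26064 CPM) differed less, with none at 0. The part of these tissues in the results below was not tested, and in whole worms fewer cells of a type and less RNA per cell cannot be told apart.

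In total RNA, about as many respiratory chain transcripts were called lower under *xpo-1* RNAi as were not called, and the complexes differed in their counts. Of the 56 members, 27 fell and none rose (edgeR adjusted p under 0.05 and more than 1.5-fold), where 16.9% of the 13795 genes tested were called lower and 12% higher. The median log2 fold change of the members was -0.56, and that of all genes tested 0.01. Values below 0 were found in 54 members, where 49.7% of all genes tested were below 0 and 50.3% above. Complex IV had all 7 of its subunits called lower (median -0.73), complex V 6 of 9 (median -1.0) and the complex IV assembly factors 4 of 7 (median -0.70). Complex III had 3 of 7 (median -0.55), complex I 6 of 21 (median -0.48) and complex II 1 of 5 (20%, near the share of all genes, median -0.41). In 49 members both *xpo-1* RNAi libraries were below both control libraries, and in none were both above, where 34.3% of all genes tested had both below. Leaving out *xpo-1* RNAi total replicate 2 reduced the calls to 11 members with a median of -0.46, the other 3 omissions gave 22 to 34, and 11 members kept the call under every omission. Scaling by total counts alone moved the median of all genes to 0.30 and that of the members to -0.28, compared with TMM scaling (trimmed mean of M values). It left 12 members called lower and 44 of 56 below 0. The share of all genes called with this scaling, or with a library left out, is not reported here.

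In polysome RNA more members were called lower than in total RNA. There 50 of 56 members fell and none rose, where 22.4% of the 13940 genes tested were called lower and 15.5% higher, and the median of the members was -1.4, against -0.01 for all genes tested. Again 54 were below 0, where 50.3% of all genes were below and 49.7% above. All 7 subunits of complex IV (median -1.48), all 9 members of complex V (median -1.5), 19 of 21 in complex I (median -1.58), 6 of 7 in complex III (median -0.95), 6 of 7 complex IV assembly factors (median -1.02) and 3 of 5 in complex II (median -0.59) were called. Both *xpo-1* RNAi libraries were below both control libraries in 53 of the 56, where this held for 37.4% of all genes tested. The 27 members called in total RNA were all called in polysome RNA as well, where 13.4% of genes tested in both were called lower in both, and 23 more were called in polysome RNA alone. Tissue markers differed here too: the sperm markers summed to 16.4 and 19.7 CPM in *xpo-1* RNAi polysome RNA, against 869 and 4166 CPM in control polysome RNA, and the intestine markers to 42042 and 35431 CPM, against 18319 and 14594 CPM. Their part in the polysome values was not tested. Without *xpo-1* RNAi polysome replicate 1 the calls numbered 35, the other 3 omissions gave 39 to 51, and 34 members kept the call under every omission. With scaling by total counts alone the median of all genes was 0.40, that of the members -1.0, and 40 were called lower. Shares of all genes called with this scaling, or with a library left out, are not reported here.

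**Figure D1:**
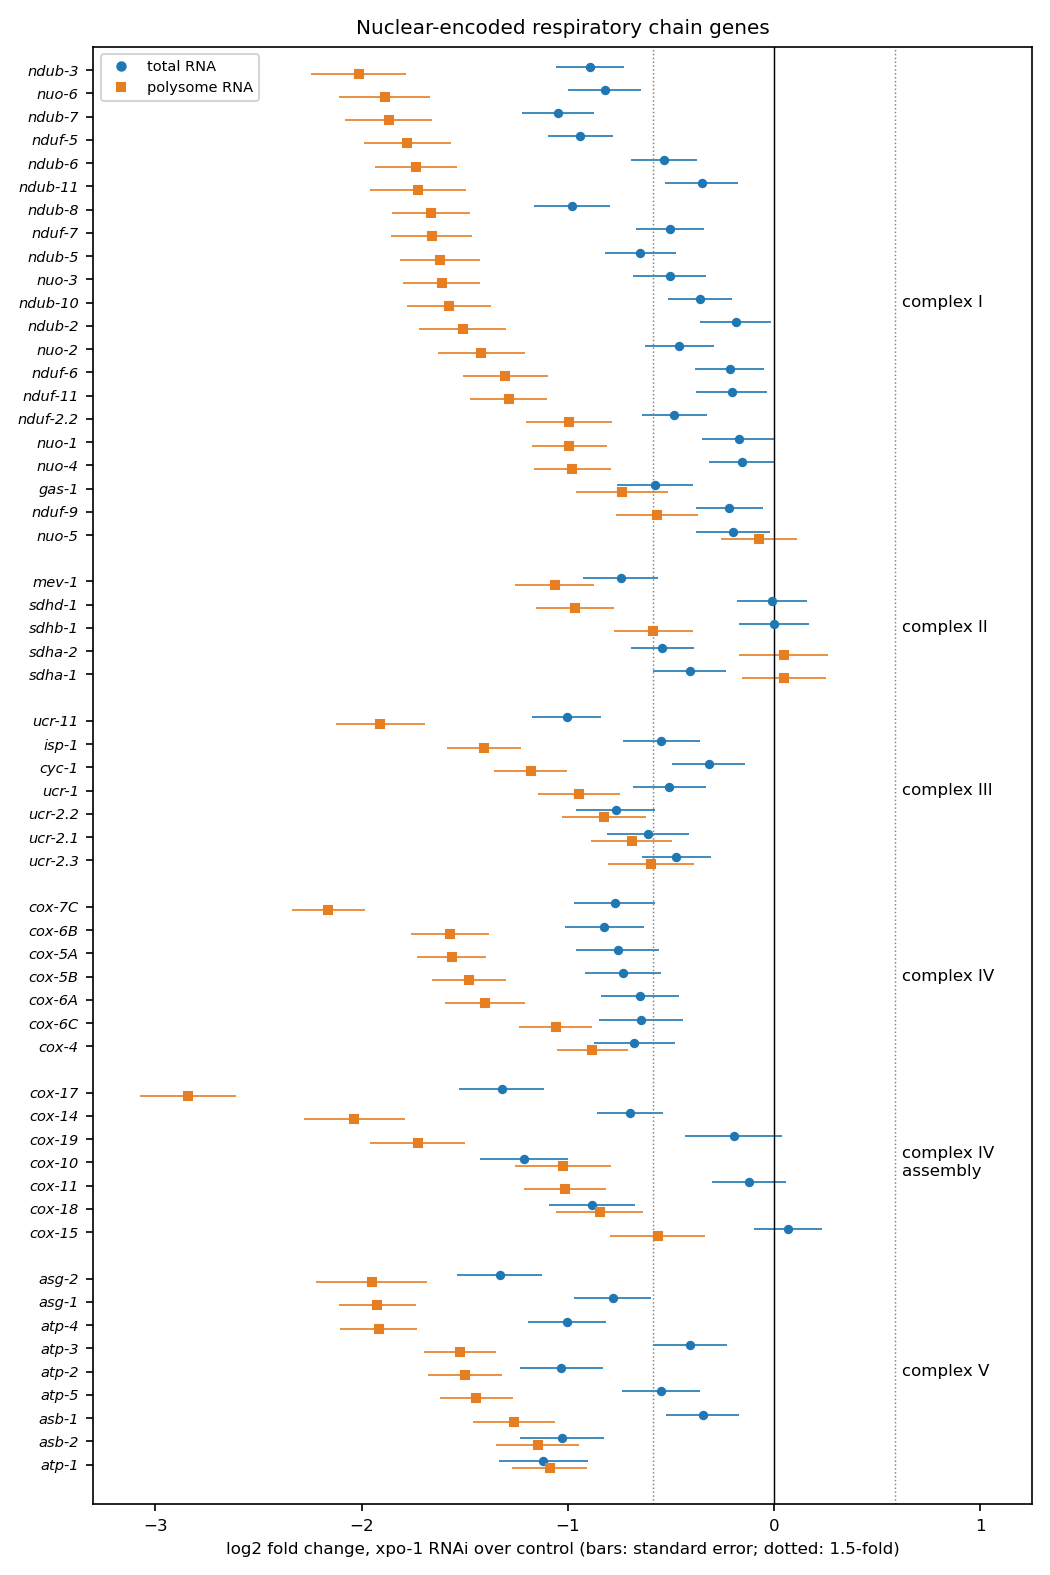
Log2 fold change (xpo-1 RNAi over control) of each of the 56 members in total RNA (circles) and polysome RNA (squares), grouped by complex, with standard errors as bars and dotted lines at 1.5-fold. Nearly all points lie left of 0, and in 50 of the 56 members the polysome point lies left of the total RNA point.

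In complex I, which oxidises NADH, the members called in polysome RNA outnumbered those called in total RNA by 19 to 6, and the core subunits covered a wide range. *nuo-1* (WBGene00003831, chromosome II, 11097841 to 11100146, plus strand, WBcel235), the flavin-bearing subunit that binds NADH, had 541 and 479 CPM in *xpo-1* RNAi total RNA, against 547 and 602 CPM in control total RNA (log2 fold change -0.17, SE 0.18, edgeR adjusted p 0.499). It fell on polysomes, with 377 and 463 CPM in *xpo-1* RNAi, against 801 and 869.7 CPM in control (log2 fold change -0.99, SE 0.18, edgeR adjusted p 0.00379). Without *xpo-1* RNAi polysome replicate 1 its adjusted p was 0.0605. *nuo-5* (WBGene00021562, chromosome V, 2698972 to 2707024, plus strand), the iron-sulfur subunit corresponding to human NDUFS1 and, with 2187 nt of coding sequence, the longest member, had 423 and 356 CPM in *xpo-1* RNAi total RNA, against 416 and 479 CPM in control total RNA (log2 fold change -0.20, SE 0.18, edgeR adjusted p 0.436). Its polysome values overlapped between the groups, at 275 and 324 CPM in *xpo-1* RNAi and 311 and 319.6 CPM in control (log2 fold change -0.07, SE 0.19, edgeR adjusted p 0.78). Exons of *nuo-5* overlap those of C24B9.3, whose counts summed to 43.6% of those of *nuo-5*, and its fold changes turned positive (0.09 in total and 0.33 in polysome RNA) with scaling by total counts alone, as did that of *nuo-1* in total RNA (0.12).

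Other core subunits of complex I fell in polysome RNA. *nuo-2*, the counterpart of NDUFS3, had 119.8 and 100.1 CPM in *xpo-1* RNAi total RNA, against 143 and 159 CPM in control total RNA (log2 fold change -0.46, SE 0.17, edgeR adjusted p 0.0611). Its polysome values were 100.4 and 128 CPM in *xpo-1* RNAi, against 286 and 326 CPM in control (log2 fold change -1.42, SE 0.21, edgeR adjusted p 0.00144). *nduf-7*, the counterpart of NDUFS7, which carries the last iron-sulfur cluster before ubiquinone, had 160.4 and 140.4 CPM in *xpo-1* RNAi total RNA, against 209 and 218 CPM in control total RNA (log2 fold change -0.50, SE 0.16, edgeR adjusted p 0.0394). In total RNA the 2 groups of *nuo-2* and of *nduf-7* did not overlap, but neither gene met both criteria of a call. In polysome RNA *nduf-7* had 124 and 144 CPM in *xpo-1* RNAi, against 395 and 451 CPM in control (log2 fold change -1.66, SE 0.20, edgeR adjusted p 0.000587), or 31.7% of control.

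The small accessory subunit *nuo-6* (WBGene00012166, chromosome I, 7068106 to 7069186, minus strand), the counterpart of NDUFB4, fell in both kinds of RNA. It had 109.9 and 89.3 CPM in *xpo-1* RNAi total RNA, against 162 and 189.8 CPM in control total RNA (log2 fold change -0.82, SE 0.18, edgeR adjusted p 0.0065). Polysome RNA of *xpo-1* RNAi worms held 107 and 128 CPM, against 373 and 496 CPM in that of control worms (log2 fold change -1.89, SE 0.22, edgeR adjusted p 0.000579). Its polysome level under *xpo-1* RNAi was 27% of control, and its total RNA level 56.6%, a call lost without *xpo-1* RNAi total replicate 2 (adjusted p 0.0842). The other 16 members of complex I had log2 fold changes between -1.05 and -0.16 in total RNA, with 5 called lower, and between -2.01 and -0.57 in polysome RNA, with 15 called lower. The only one of these 16 not called in polysome RNA was *nduf-9* (log2 fold change -0.57, SE 0.20, edgeR adjusted p 0.0526), named here after its value was seen.

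Complex II (succinate dehydrogenase), which is also an enzyme of the tricarboxylic acid cycle and has no mitochondrially encoded subunit, had 3 of 5 members called lower in polysome RNA, and the other 2 encode its flavoprotein. *sdha-1* (WBGene00015391, chromosome X, 8542867 to 8546021, minus strand) encodes the subunit that oxidises succinate and had 113 and 109 CPM in *xpo-1* RNAi total RNA, against 128 and 167 CPM in control total RNA (log2 fold change -0.41, SE 0.18, edgeR adjusted p 0.104). The polysome libraries had 119 and 148 CPM under *xpo-1* RNAi, against 131 and 127 CPM in control (log2 fold change 0.05, SE 0.20, edgeR adjusted p 0.868). In polysome RNA the 2 groups overlapped, as they did for its copy *sdha-2*, with 94 and 119 CPM in *xpo-1* RNAi and 93.9 and 112 CPM in control (log2 fold change 0.05, SE 0.22, edgeR adjusted p 0.883). These polysome values near 0 changed sign, to -0.00892 for *sdha-1* and -0.0138 for *sdha-2*, where 10 counts in every library were required.

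The other subunits of complex II were lower in polysome RNA. *sdhb-1*, the iron-sulfur subunit, had 289 and 242 CPM in *xpo-1* RNAi total RNA, against 263 and 267 CPM in control total RNA (log2 fold change 0.00, SE 0.17, edgeR adjusted p 0.997). The control values lay between those of *xpo-1* RNAi. On polysomes it had 153 and 173 CPM in *xpo-1* RNAi, against 258 and 232 CPM in control (log2 fold change -0.59, SE 0.19, edgeR adjusted p 0.0407). This call was lost without control polysome replicate 1 (-0.58, under 1.5-fold) and without *xpo-1* RNAi polysome replicate 1 or 2 (adjusted p 0.362 and 0.204). The membrane anchors were *mev-1* and *sdhd-1*. *mev-1* (WBGene00003225, chromosome III, 10334267 to 10335171, plus strand), the cytochrome b subunit, fell in both kinds of RNA and had 121 and 100.3 CPM in *xpo-1* RNAi total RNA, against 164 and 207 CPM in control total RNA (log2 fold change -0.74, SE 0.18, edgeR adjusted p 0.0122). On polysomes its level was 139 and 162 CPM in *xpo-1* RNAi, against 304 and 325 CPM in control (log2 fold change -1.06, SE 0.19, edgeR adjusted p 0.00331). The groups of *sdhd-1* overlapped in total RNA, with 194 and 157 CPM in *xpo-1* RNAi and 172 and 180.5 CPM in control (log2 fold change -0.01, SE 0.17, edgeR adjusted p 0.974). They did not in polysome RNA, with 135 and 147 CPM in *xpo-1* RNAi and 283 and 266 CPM in control (log2 fold change -0.97, SE 0.19, edgeR adjusted p 0.00461). The total RNA call of *mev-1* was lost without *xpo-1* RNAi total replicate 2 (adjusted p 0.127). Without *xpo-1* RNAi polysome replicate 1 the polysome calls of *mev-1* and *sdhd-1* were lost (adjusted p 0.0791 and 0.1), that of *sdhd-1* also without replicate 2 (adjusted p 0.0642).

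Complex III, which passes electrons from ubiquinol to cytochrome c, had 6 of its 7 members called lower in polysome RNA, both of its nuclear-encoded electron carriers among them. *isp-1* (WBGene00002162, chromosome IV, 8133789 to 8136055, minus strand), the Rieske iron-sulfur protein, had 236 and 267 CPM in *xpo-1* RNAi polysome RNA, against 671 and 661 CPM in control polysome RNA (log2 fold change -1.41, SE 0.18, edgeR adjusted p 0.000764). In total RNA it had 401 and 319 CPM in *xpo-1* RNAi, against 493 and 559 CPM in control (log2 fold change -0.55, SE 0.19, edgeR adjusted p 0.0495), a difference under 1.5-fold. *cyc-1* (WBGene00000869, chromosome I, 8022674 to 8024422, minus strand), cytochrome c1, had 529 and 494 CPM in *xpo-1* RNAi total RNA, against 598 and 677 CPM in control total RNA (log2 fold change -0.32, SE 0.18, edgeR adjusted p 0.201). Polysomal levels were 298 and 335 CPM under *xpo-1* RNAi, against 722 and 714 CPM in control (log2 fold change -1.18, SE 0.18, edgeR adjusted p 0.00145). The core protein gene *ucr-1* had 386 and 346 CPM in *xpo-1* RNAi total RNA, against 487 and 554 CPM in control total RNA (log2 fold change -0.51, SE 0.18, edgeR adjusted p 0.0516). Its polysome values were 246 and 287 CPM in *xpo-1* RNAi, against 569.6 and 457 CPM in control (log2 fold change -0.95, SE 0.20, edgeR adjusted p 0.00663). None of the 3 had overlapping groups in either kind of RNA. The polysome call of *ucr-1* was lost without *xpo-1* RNAi polysome replicate 1 (adjusted p 0.102).

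The subunits of complex IV (cytochrome c oxidase) encoded in the nucleus surround a catalytic core made from mitochondrial DNA, and all 7 fell in both kinds of RNA, within a narrow range in total RNA (log2 fold changes from -0.82 to -0.64) and a wider one in polysome RNA (-2.16 to -0.88). *cox-5A* (WBGene00012553, chromosome III, 12905491 to 12906619, plus strand) had 720.0 and 558 CPM in *xpo-1* RNAi total RNA, against 1021 and 1139.6 CPM in control total RNA (log2 fold change -0.76, SE 0.20, edgeR adjusted p 0.0172). Polysome RNA of *xpo-1* RNAi worms held 461 and 499.7 CPM, against 1375 and 1463 CPM in that of control worms (log2 fold change -1.56, SE 0.17, edgeR adjusted p 0.000421). *cox-7C* (WBGene00009161, chromosome I, 9773172 to 9774012, plus strand) had 406 and 301 CPM in *xpo-1* RNAi total RNA, against 578 and 632 CPM in control total RNA (log2 fold change -0.77, SE 0.20, edgeR adjusted p 0.0145). The polysome libraries had 242 and 258 CPM under *xpo-1* RNAi, against 1051 and 1185 CPM in control (log2 fold change -2.16, SE 0.18, edgeR adjusted p 0.00018). In polysome RNA its *xpo-1* RNAi level was 22.4% of control, the lowest of these 7. *cox-4*, at the other end, had 468 and 528 CPM in *xpo-1* RNAi polysome RNA, against 882 and 954 CPM in control polysome RNA (log2 fold change -0.88, SE 0.17, edgeR adjusted p 0.00466).

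The 4 other subunits of complex IV lay between these in polysome RNA. *cox-5B* had 267 and 273 CPM in *xpo-1* RNAi polysome RNA, against 698 and 808 CPM in control polysome RNA (log2 fold change -1.48, SE 0.18, edgeR adjusted p 0.000646). For *cox-6A* the values were 219 and 228 CPM in *xpo-1* RNAi, against 524 and 655 CPM in control (log2 fold change -1.4, SE 0.19, edgeR adjusted p 0.00105). Exons of *cox-6B* overlap those of the complex I gene *nduc-2*, whose own counts summed to 31.1% of those of *cox-6B*. For *cox-6B* the values were 293 and 323 CPM, against 818 and 1013 CPM (log2 fold change -1.57, SE 0.19, edgeR adjusted p 0.000616). For *cox-6C* they were 319 and 324 CPM, against 620.0 and 720.2 CPM (log2 fold change -1.06, SE 0.18, edgeR adjusted p 0.0025). In no subunit of complex IV did the groups overlap, in total or in polysome RNA. Without *xpo-1* RNAi total replicate 2, none of the 7 was called (log2 fold changes -0.64 to -0.43, adjusted p 0.0962 to 0.274). Without control total replicate 2 the total RNA calls of *cox-4*, *cox-5A* and *cox-6C* were lost (adjusted p 0.0504 to 0.0687). In polysome RNA only that of *cox-4* was lost, without *xpo-1* RNAi replicate 1 (adjusted p 0.0694).

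The complex IV assembly factors were expressed at lower levels (13.7 to 139 CPM per kb of exon in control total RNA, against 538 to 1554 for the subunits) and had the widest range of fold changes of the 6 classes. *cox-17* (WBGene00018240, chromosome III, 190986 to 191981, plus strand), a copper chaperone that hands copper on to the enzyme, had the lowest polysome fold change of all 56 members. It had 18.8 and 14 CPM in *xpo-1* RNAi total RNA, against 41.1 and 40.7 CPM in control total RNA (log2 fold change -1.32, SE 0.20, edgeR adjusted p 0.00129). On polysomes its level was 6.12 and 7.27 CPM in *xpo-1* RNAi, against 42.9 and 53.3 CPM in control (log2 fold change -2.84, SE 0.23, edgeR adjusted p 0.00018), or 13.9% of control. *cox-11*, which is also needed to insert copper, had overlapping groups in total RNA (33.7 and 36.4 CPM in *xpo-1* RNAi and 41.6 and 34.7 CPM in control, adjusted p 0.65). It fell on polysomes, with 20.7 and 23.5 CPM in *xpo-1* RNAi, against 45.3 and 43.9 CPM in control (log2 fold change -1.01, SE 0.20, edgeR adjusted p 0.00494). *cox-19*, a small protein of the intermembrane space, likewise overlapped in total RNA (19.1 and 14.2 CPM in *xpo-1* RNAi and 21.6 and 16.5 CPM in control, adjusted p 0.563). It fell as well on polysomes, with 8.02 and 7.75 CPM in *xpo-1* RNAi, against 22.7 and 29.6 CPM in control (log2 fold change -1.73, SE 0.23, edgeR adjusted p 0.000949). *cox-14* had 28.6 and 34.5 CPM in *xpo-1* RNAi polysome RNA, against 108 and 151 CPM in control polysome RNA (log2 fold change -2.04, SE 0.24, edgeR adjusted p 0.000622).

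*cox-10* and *cox-15* encode the enzymes that make heme A for complex IV. *cox-10* (WBGene00012895, chromosome II, 12679954 to 12686713, plus strand), which attaches the farnesyl group to heme, had 8.53 and 9.41 CPM in *xpo-1* RNAi total RNA, against 19.9 and 21.7 CPM in control total RNA (log2 fold change -1.21, SE 0.21, edgeR adjusted p 0.00237). Polysomal levels were 7.53 and 9.19 CPM under *xpo-1* RNAi, against 17.8 and 16.2 CPM in control (log2 fold change -1.02, SE 0.23, edgeR adjusted p 0.00918). *cox-15* (WBGene00011526, chromosome II, 11232756 to 11234952, minus strand), which carries out the following step, had the highest total RNA fold change of the 56, with 122 and 102 CPM in *xpo-1* RNAi total RNA, against 108 and 105 CPM in control total RNA (log2 fold change 0.07, SE 0.16, edgeR adjusted p 0.791). Its groups overlapped in total RNA but not in polysome RNA, where it had 53.3 and 66.2 CPM in *xpo-1* RNAi, against 101 and 76.1 CPM in control (log2 fold change -0.57, SE 0.23, edgeR adjusted p 0.083). It was called in polysome RNA only without control polysome replicate 2 (adjusted p 0.000136), and the polysome calls of *cox-10* and *cox-11* were lost without either *xpo-1* RNAi polysome replicate (adjusted p 0.0589 to 0.164).

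Complex V held the 2 members with the highest CPM and the largest share of the counts of the set. *atp-1* (WBGene00010419, chromosome I, 12652277 to 12654646, plus strand) and *atp-2* (WBGene00000229, chromosome III, 5228417 to 5230536, plus strand) encode the alpha and beta subunits of the catalytic head. *atp-1* had 1582 and 1315 CPM in *xpo-1* RNAi total RNA, against 2871 and 3423 CPM in control total RNA (log2 fold change -1.12, SE 0.22, edgeR adjusted p 0.00383). Its polysome values were 943 and 1159.5 CPM in *xpo-1* RNAi, against 2450.1 and 2017 CPM in control (log2 fold change -1.09, SE 0.18, edgeR adjusted p 0.00242). *atp-2* had 1455 and 1332 CPM in *xpo-1* RNAi total RNA, against 2713 and 2987 CPM in control total RNA (log2 fold change -1.03, SE 0.20, edgeR adjusted p 0.00408). Polysome RNA of *xpo-1* RNAi worms held 927 and 993 CPM, against 3059 and 2362 CPM in that of control worms (log2 fold change -1.5, SE 0.18, edgeR adjusted p 0.000612). Both genes were thus at about the same fraction of control in total RNA (46% and 48.9%), and no group overlapped.

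3 subunits that link the head of complex V to its membrane part all fell in polysome RNA. *atp-3*, the stalk protein known as OSCP, had 542 and 468 CPM in *xpo-1* RNAi total RNA, against 651 and 689 CPM in control total RNA (log2 fold change -0.41, SE 0.18, edgeR adjusted p 0.11). The polysome libraries had 234.5 and 239.7 CPM under *xpo-1* RNAi, against 659.7 and 701 CPM in control (log2 fold change -1.52, SE 0.18, edgeR adjusted p 0.00054). *atp-4*, coupling factor 6, had 282 and 224 CPM in *xpo-1* RNAi total RNA, against 469 and 544 CPM in control total RNA (log2 fold change -1.0, SE 0.19, edgeR adjusted p 0.00346). On polysomes its level was 200.2 and 224 CPM in *xpo-1* RNAi, against 739 and 864 CPM in control (log2 fold change -1.92, SE 0.19, edgeR adjusted p 0.000299). *atp-5*, subunit d, had 599 and 491 CPM in *xpo-1* RNAi total RNA, against 752 and 839 CPM in control total RNA (log2 fold change -0.55, SE 0.19, edgeR adjusted p 0.0505). Polysomal levels were 448 and 538 CPM under *xpo-1* RNAi, against 1291 and 1389 CPM in control (log2 fold change -1.44, SE 0.18, edgeR adjusted p 0.000674). In total RNA only *atp-4* of these 3 was called lower, although none of the 3 had overlapping groups. All 9 complex V calls in polysome RNA held under each omission of a library except that of *asb-2*, which had an adjusted p of 0.0553 without *xpo-1* RNAi polysome replicate 1.

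The set as a whole took a smaller share of the counts under *xpo-1* RNAi in total and polysome RNA. The 56 members took 1.54% and 1.44% of all counts in *xpo-1* RNAi total RNA, against 1.88% and 2.04% in control total RNA. In polysome RNA they took 1.23% and 1.32% in *xpo-1* RNAi, against 2.34% and 2.51% in control. In monosome RNA the share was 1.37% in the *xpo-1* RNAi library, against 1.42% and 1.47% in the control libraries. With 1 *xpo-1* RNAi library this small difference was not tested, and the complexes differed in direction. Against the control mean, the monosome share was higher in complexes I, II (0.0778%, against 0.0598%) and III. It was lower in complex IV, its assembly factors and complex V (0.515%, against 0.594%). The Wilson 95% interval of every share was within 0.00746 percentage points and covers counting error only. Complex V held 0.538% of total RNA counts in *xpo-1* RNAi, against 0.836% in control (means), whereas complex I held 0.387%, against 0.430%, and complex II 0.0841%, against 0.0831%. In polysome RNA complex I held 0.347% in *xpo-1* RNAi, against 0.664% in control, and complex II 0.0798%, against 0.0925%.

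**Figure D2:**
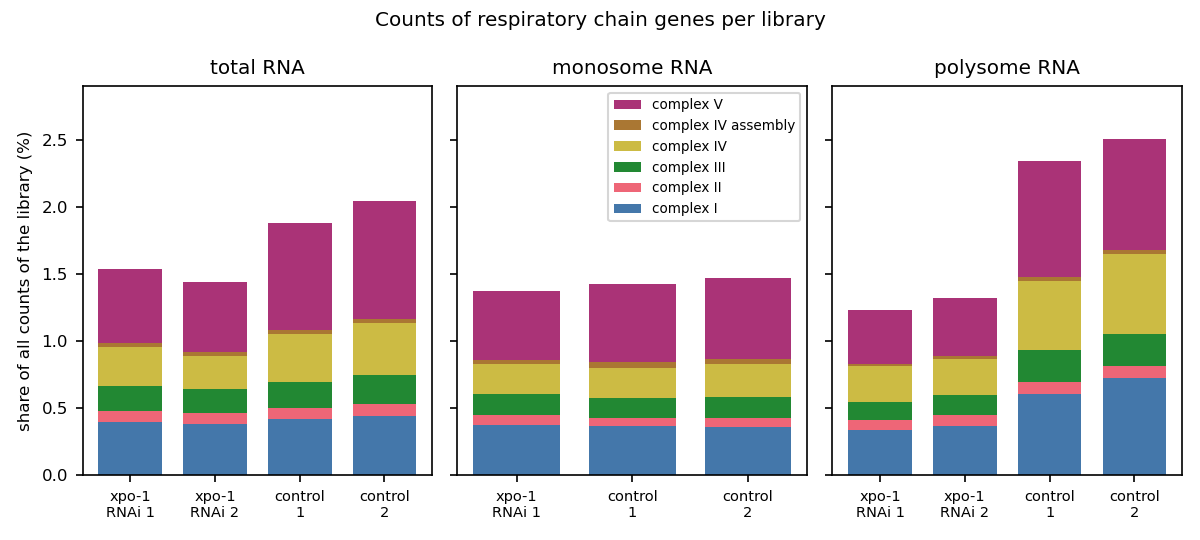
Share of all counts (percent) held by the members in each library, stacked by complex, for total, monosome and polysome RNA, with the xpo-1 RNAi libraries left of the control libraries. The stacks reach 1.23% and 1.32% in xpo-1 RNAi polysome RNA, against 2.34% and 2.51% in control polysome RNA, while the 3 monosome stacks lie between 1.37% and 1.47%.

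Whether the change in polysome RNA differed from that in total RNA was tested as an interaction (the polysome log2 fold change less the total RNA one) over the 8 libraries of both kinds. No member, and none of the 14900 genes tested (0%), was called by edgeR, with a smallest adjusted p of 0.0972. At an unadjusted p under 0.05, 36 members were lower and 1 higher, where 8.36% of all genes were lower and 7.79% higher. The median interaction of the members was -0.77, against 0.02 for all genes, and 50 of 56 were below 0. DESeq2 called 29 members lower, where it called 6.3% of the genes that received an adjusted p value. The study took total RNA from the supernatant that was then loaded on the gradient, and a fit with the replicate number as a block called 28 members lower, where 6.55% of all genes were. With the *xpo-1* RNAi numbers crossed, an alternative chosen after seeing the data, the block called 35 lower and 1 higher, where 9.66% of all genes were lower. The call thus depends on the test and on the pairing.

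The lowest interactions were in *cox-19* (-1.48, SE 0.32), *cox-17* (-1.47, SE 0.29) and *cox-7C* (-1.34, SE 0.26), each with an edgeR adjusted p of 0.0972. The highest were in *sdha-2* (0.63, SE 0.24, edgeR adjusted p 0.228), *sdha-1* (0.50, SE 0.25, adjusted p 0.373) and *cox-10* (0.23, SE 0.27, adjusted p 0.743). By complex the medians were -0.93 in complex I, -0.27 in complex II, -0.39 in complex III, -0.70 in complex IV, -0.84 in its assembly factors and -0.85 in complex V. The polysome over total ratio had a median log2 value of -0.29 over the members in *xpo-1* RNAi, against 0.33 in control, while all genes had medians of 0.04 and 0.07. Leaving out *xpo-1* RNAi total replicate 1 or *xpo-1* RNAi polysome replicate 1 moved the median of the members to -0.41 and -0.47 and that of all genes to 0.26 in each case. Leaving out *xpo-1* RNAi total replicate 2 moved them to -0.64 and 0.29, and leaving out control polysome replicate 1 to -0.82 and 0.01.

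Coding length, which the choice of members did not use, ordered the polysome fold changes. Across the 56 members, the Spearman correlation of coding length with the log2 fold change was 0.78 in polysome RNA, 0.33 in total RNA and 0.63 for the interaction. These are descriptions across genes, which share the same 8 libraries and their depth and are not independent replicates. Over all genes with a coding length the same values were 0.33, 0.12 and 0.36. All 40 members under 1000 nt were called lower in polysome RNA (median -1.57), where 35.5% of all genes of that length were. Of the 16 longer members 10 were called (median -0.78), where 11.98% of all genes of 1000 nt or more were. *cox-17*, with 189 nt, had the lowest polysome value, and the 3 longest, *nuo-5* (2187 nt), *sdha-1* (1938 nt) and *sdha-2* (1920 nt), had the 3 highest. The polysome over total ratio itself had a Spearman correlation with length of 0.05 under *xpo-1* RNAi and of -0.59 in control. For all genes with a coding length these values were 0.10 and -0.20.

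**Figure D3:**
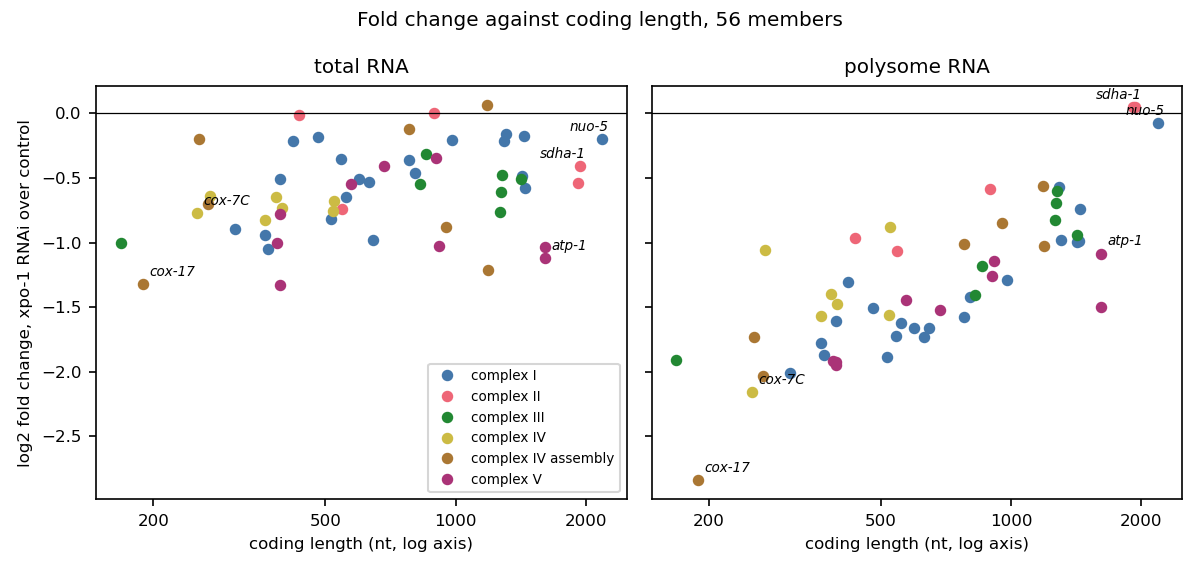
Log2 fold change (xpo-1 RNAi over control) of the 56 members against coding length in nt (log axis), in total RNA on the left and polysome RNA on the right, coloured by complex. In polysome RNA the points climb from cox-17 at -2.84 to nuo-5, sdha-1 and sdha-2 near 0, with a Spearman correlation of 0.78, against 0.33 in total RNA.

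Several subunits are encoded by more than 1 gene, with 6 members on the X chromosome and 50 on autosomes. For ATP synthase subunit b, the X-linked copy *asb-2* (WBGene00000207, chromosome X, 4469743 to 4471476, plus strand) had 221 and 200.3 CPM in *xpo-1* RNAi total RNA, against 353 and 507 CPM in control total RNA (log2 fold change -1.03, SE 0.20, edgeR adjusted p 0.00435). Its polysome values were 184 and 203 CPM in *xpo-1* RNAi, against 375 and 480.1 CPM in control (log2 fold change -1.15, SE 0.20, edgeR adjusted p 0.00303). The autosomal copy *asb-1* (WBGene00000206, chromosome III, 4594543 to 4595944, minus strand) had 270.5 and 221 CPM in *xpo-1* RNAi total RNA, against 331 and 294 CPM in control total RNA (log2 fold change -0.35, SE 0.18, edgeR adjusted p 0.165). Polysome RNA of *xpo-1* RNAi worms held 228 and 287 CPM, against 663 and 571 CPM in that of control worms (log2 fold change -1.26, SE 0.20, edgeR adjusted p 0.00185). *asb-2* was thus called in both kinds of RNA (interaction -0.07, SE 0.29, adjusted p 0.949), while *asb-1* was called in polysome RNA alone (interaction -0.87, SE 0.27, adjusted p 0.158). The difference between the copies was not tested.

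For subunit g, the X-linked *asg-2* (WBGene00000210, chromosome X, 6841258 to 6842129, plus strand) had the lowest total RNA fold change of all 56 members. It had 70.6 and 60.4 CPM in *xpo-1* RNAi total RNA, against 134 and 196 CPM in control total RNA (log2 fold change -1.33, SE 0.21, edgeR adjusted p 0.00127). The polysome libraries had 65.1 and 63.4 CPM under *xpo-1* RNAi, against 185 and 313 CPM in control (log2 fold change -1.95, SE 0.27, edgeR adjusted p 0.00109). The autosomal *asg-1* (WBGene00000209, chromosome I, 8692946 to 8693468, plus strand) had 247 and 186 CPM in *xpo-1* RNAi total RNA, against 381 and 362 CPM in control total RNA (log2 fold change -0.78, SE 0.19, edgeR adjusted p 0.0108). On polysomes its level was 170.5 and 186 CPM in *xpo-1* RNAi, against 631 and 719 CPM in control (log2 fold change -1.92, SE 0.19, edgeR adjusted p 0.00029). Without *xpo-1* RNAi total replicate 2 the total RNA calls of *asb-2* (adjusted p 0.0515) and *asg-1* (adjusted p 0.111) were lost.

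Of the 3 genes for core protein 2 of complex III, *ucr-2.1* (X) had 138 and 125 CPM in *xpo-1* RNAi total RNA, against 165 and 238 CPM in control total RNA (log2 fold change -0.61, SE 0.20, edgeR adjusted p 0.0393). On polysomes it had 116 and 129.6 CPM in *xpo-1* RNAi, against 186 and 210.3 CPM in control (log2 fold change -0.69, SE 0.20, edgeR adjusted p 0.0234). *ucr-2.2* (X) had 61.4 and 58.2 CPM in *xpo-1* RNAi total RNA, against 84.1 and 119 CPM in control total RNA (log2 fold change -0.77, SE 0.19, edgeR adjusted p 0.0135). It had on polysomes 73.8 and 84.6 CPM in *xpo-1* RNAi, against 130.0 and 151 CPM in control (log2 fold change -0.82, SE 0.20, edgeR adjusted p 0.0134). *ucr-2.3* (chromosome III) had 132 and 109.7 CPM in *xpo-1* RNAi total RNA, against 175 and 161 CPM in control total RNA (log2 fold change -0.48, SE 0.17, edgeR adjusted p 0.054). Its polysome libraries held 121 and 140.2 CPM in *xpo-1* RNAi, against 219 and 176 CPM in control (log2 fold change -0.60, SE 0.21, edgeR adjusted p 0.0503). Exons of all 3 overlap another gene (*sams-1*, *pkhm-2* and *zer-1*, with counts of 57.8%, 50.8% and 151% of the member's), so their values may hold reads of the neighbour. Each call of *ucr-2.1* and *ucr-2.2* was lost without either *xpo-1* RNAi library of its fit or, in total RNA, without control total replicate 2 (adjusted p 0.0524 to 0.276, or, for *ucr-2.2* without control total replicate 2, 0.0233 at under 1.5-fold).

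As a group, the 6 X-linked members had a median log2 fold change of -0.69 in total RNA, -0.78 in polysome RNA and a median interaction of -0.05. The 50 autosomal members had medians of -0.54, -1.43 and -0.82. The X-linked members were also longer, with a median coding length of 1269 nt, against 585 nt in the autosomal members. The part of coding length in these medians was not tested. All genes on X had medians of -0.14 in total RNA, 0.09 in polysome RNA and 0.25 for the interaction, and all autosomal genes 0.03, 0.00 and 0.00. The control replicates of the X-linked members also differed: control total replicate 2 exceeded replicate 1 in all 6, by 0.39 to 0.55 on the log2 scale (median 0.51), where the autosomal members had a median of 0.13. All genes on X had a median of 0.25 and all autosomal genes -0.05. The muscle markers differed between these 2 libraries in the same direction (1791 CPM in replicate 1 and 3368 CPM in replicate 2), as did the sperm markers (373 and 1686 CPM), and their part in the X-linked values was not tested.

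**Figure D4:**
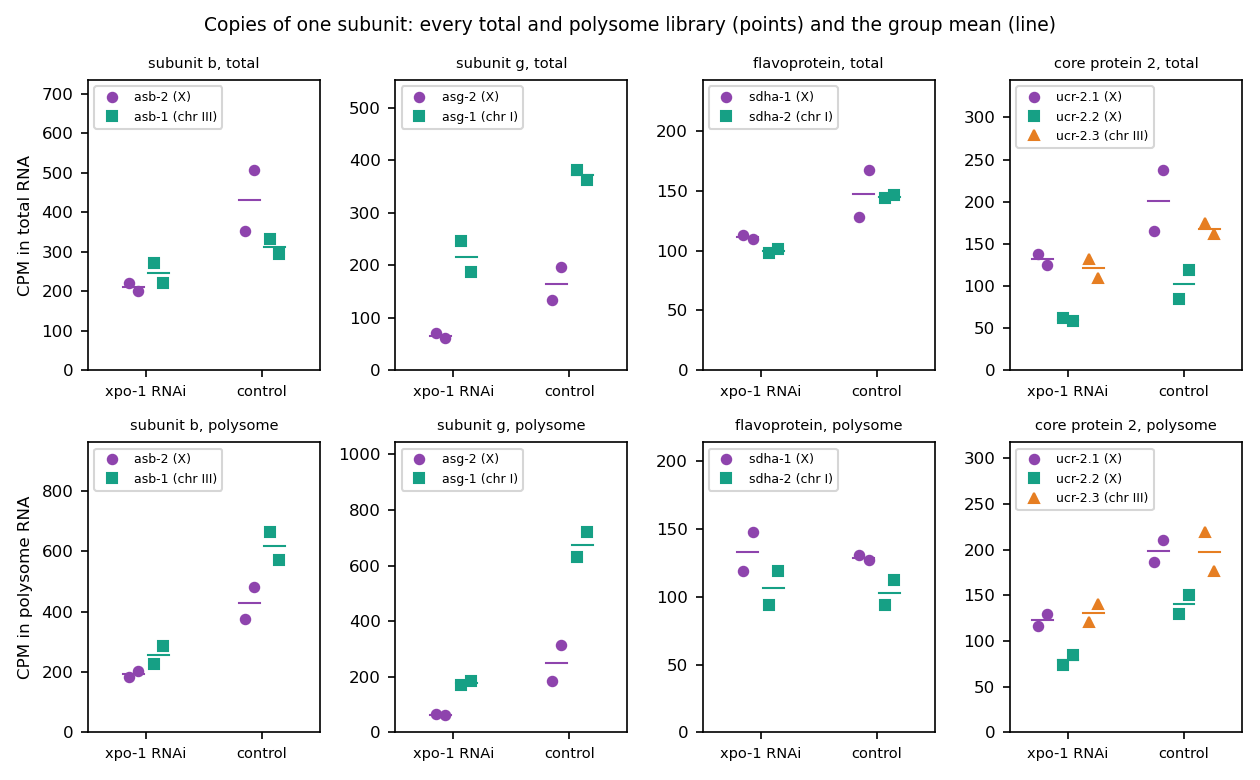
CPM of the copies of 4 subunits in every total RNA library (upper row) and polysome library (lower row), xpo-1 RNAi left of control, with 1 point per library and a line at the mean of the 2. asb-2 and asg-2 lie lower under xpo-1 RNAi in both rows, asb-1 mainly in the polysome row, and the points of sdha-1 and sdha-2 overlap between the groups in the polysome row.

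In monosome RNA, with a single *xpo-1* RNAi library, members were described and not tested. In 29 of 56 the *xpo-1* RNAi library was above both control libraries, where this held for 37.2% of all genes, and in 16 it was below both, where this held for 40.7%. The median log2 ratio was 0.21, against 0.00 for all genes. These directions turn with the scaling: by total counts alone 16 members were above and 34 below both control libraries (20.8% and 59.1% of all genes), and the median was -0.20, against -0.41 for all genes. Marker sums moved in this fraction too, with intestine markers at 62476 CPM in the *xpo-1* RNAi monosome library, against 19045 and 11614 CPM in the control ones, and sperm markers at 36.0 CPM, against 110 and 570 CPM. Their part in the monosome values and in the ratios built on them was not tested. *nuo-5* had 755 CPM in the *xpo-1* RNAi monosome library, against 351 and 293 CPM in the control monosome libraries. *sdhd-1* had 247 CPM in the *xpo-1* RNAi monosome library, against 108 and 105 CPM in the control monosome libraries. For *sdhb-1* the value was 265 CPM in the *xpo-1* RNAi monosome library, against 133 and 109 CPM in the control monosome libraries. These 3 had the highest ratios of all members, between 2.19 and 2.35 times the control mean. *asg-2* had 48.9 CPM in the *xpo-1* RNAi monosome library, against 89.1 and 144 CPM in the control monosome libraries, the lowest ratio (0.420 times the control mean), and *cox-17* had 29.8 CPM in the *xpo-1* RNAi monosome library, against 62.9 and 36.9 CPM in the control monosome libraries. In 27 members the monosome library was above both controls while both polysome libraries were below both controls, where 6.83% of all genes showed this with TMM scaling.

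The ratio of polysome to monosome RNA, which the study used as translation efficiency, was lower under *xpo-1* RNAi in 55 of 56 members. The median of its log2 change was -1.60, against -0.02 for all genes, and 45 members were lower by more than 2-fold and none higher, where 15.8% of all genes were lower and 8% higher by that much. *cox-7C* (-2.29), *asg-1* (-2.23) and *sdhd-1* (-2.21) had the lowest values. *sdha-2* was the exception, at 0.71, with 89.5 CPM in the *xpo-1* RNAi monosome library, against 149.98 and 141 CPM in the control monosome libraries. The values of *asb-1* and *asb-2* were -1.95 and -0.80, and those of *asg-1* and *asg-2* -2.23 and -0.74. With scaling by total counts the median of the members was -0.81, against 0.76 for all genes, and 20 were lower by more than 2-fold. The share of all genes beyond 2-fold with that scaling is not reported here.

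**Figure D5:**
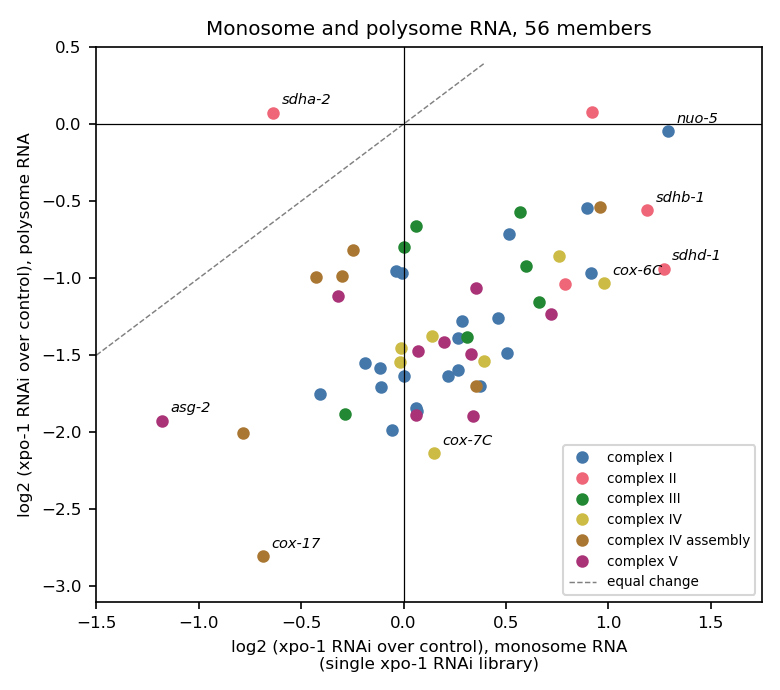
Log2 ratio of xpo-1 RNAi to control in monosome RNA (horizontal, a single xpo-1 RNAi library) and polysome RNA (vertical, mean of 2 libraries per group) for the 56 members, coloured by complex, with a dashed line of equal change. All points but that of sdha-2 lie below the line, and with the size factors used here 38 of 56 lie right of 0 on the monosome axis, a direction that turns with scaling by total counts (median -0.20).

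Respiratory chain genes whose symbols fall outside the rule also fell in most cases in polysome RNA. Of 24 such genes (further complex I subunits, cytochrome c and its partners, and ATP synthase factors), 12 fell and none rose in total RNA (median -0.64). Of all genes tested in total RNA, 16.9% were called lower and 12% higher. In polysome RNA 20 of the 24 fell and 1 rose (median -1.41), where 22.4% of all genes tested were called lower and 15.5% higher. *cyc-2.1*, a cytochrome c, had a log2 fold change of -0.93 in total RNA (SE 0.19, edgeR adjusted p 0.00571) and -2.46 in polysome RNA (SE 0.19, adjusted p 0.000166). The other cytochrome c gene, *cyc-2.2*, also fell in both (adjusted p 0.0017 and 0.00124), but at low levels, with 0.102 and 0.165 CPM in *xpo-1* RNAi total RNA, against 1.43 and 6.42 CPM in control total RNA. *mai-1*, an ATPase inhibitor, was the 1 that rose, in polysome RNA (1.02, SE 0.23, adjusted p 0.00905), while *mai-2*, another, fell in it (-1.53, SE 0.18, adjusted p 0.000536).

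Enzymes of the tricarboxylic acid cycle and pyruvate dehydrogenase, which supply the chain with NADH and succinate, had 4 of 20 members lower in total RNA (median -0.40) and 10 of 20 in polysome RNA (median -0.62), and none rose. In total RNA that is 20%, near the 16.9% of all genes called lower. Of all genes tested in polysome RNA, 22.4% were called lower, the share to set beside the polysome count of each list in this paragraph. The malate dehydrogenase gene *mdh-2* (-1.18, SE 0.20, adjusted p 0.00179) had the lowest total RNA value. Of the 12 protein-coding genes of the mitochondrial genome, which encode the remaining subunits of complexes I, III, IV and V, 6 fell in total RNA (median -0.59) and 4 of 11 in polysome RNA (median -0.77). They took 0.662% and 0.656% of the counts of *xpo-1* RNAi total RNA, against 0.677% and 0.677% in control total RNA, in libraries made from polyadenylated RNA. Ribosomal protein genes, which are mostly short and highly expressed, fell as well: 74 of 78 cytosolic ribosomal protein genes in total RNA (median -1.0) and 77 of 77 in polysome RNA (median -1.78), and 33 and 64 of 69 mitochondrial ribosomal protein genes (medians -0.56 and -1.21).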

How the data were processed

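Polyadenylated RNA of whole worms was sequenced in 11 libraries, 2 for each group and RNA kind except *xpo-1* RNAi monosome RNA with 1. Per the labels, the authors trimmed reads with Trimmomatic, aligned them with STAR to WBcel235 and counted reads per gene with featureCounts of Subread, and the deposited values used here are raw counts per gene. Versions, strand setting and the treatment of reads that fit several genes are not given in the sources used here, so reads over exons shared by 2 genes may count for either. The authors' normalized tables were not used.

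Members and gene lists were chosen with earlier results of these data known. Genes reaching 10 counts in 2 or more of the compared libraries were tested with edgeR 4.0.16 (R 4.3.3, TMM scaling, quasi-likelihood F test, Benjamini-Hochberg adjustment over all genes tested). Calls needed an adjusted p under 0.05 and a change of more than 1.5-fold. SE is the absolute log2 fold change over the square root of F. CPM were scaled by TMM within each RNA kind and are not compared between kinds, and CPM per kb uses exon length. Translation efficiency is the log2 ratio of polysome to monosome means (size factors within each fraction, pseudocount 1), with no test, as *xpo-1* RNAi monosome RNA has a single library. The labels call the samples biological duplicates, and with 2 per group p-values measure the spread between those. Named members are 37 subunits and assembly factors listed by function (the values of 2 of them are not reported here), with the 3 lowest and 3 highest fold changes of each comparison. The gene lists were 24 further respiratory genes, tricarboxylic acid cycle, cytosolic and mitochondrial ribosomal proteins, ubiquinone synthesis, protein import, chaperones and proteases, carriers, glycolysis, the mitochondrial genome and 5 tissue marker lists. Alternatives were scaling, filters, DESeq2 1.42.0, 1 fit over all libraries, a replicate block and leaving out each library. The main edgeR fits (total RNA, polysome RNA and the interaction) were tested on simulated counts with known changes.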

Additional observations from a re-analysis of the deposited data

How the results depend on the processing

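Most members kept their direction in most alternatives, while the counts of calls moved. Scaling by total counts alone also moved the medians and changed some signs. Scaling by total counts alone gave 12 members called in total RNA (27 with TMM), a median of -0.28 in total RNA and of -1.0 in polysome RNA, 10 members with a changed sign in total RNA, of which those with values named here were *nuo-1* (0.12), *nuo-5* (0.0863), *sdhd-1* (0.27) and *cox-11* (0.17), all positive, a positive polysome value in *nuo-5* (0.33), and positive interactions in *ucr-2.1* (0.0359), *ucr-2.2* (0.0553) and *ucr-2.3* (0.00149). The median change in translation efficiency was then -0.81, and, added after seeing the data, the median monosome change -0.20, with 16 members above and 34 below both control libraries. The share of all genes called in total RNA with scaling by total counts alone is not reported here. Members called in the interaction numbered 0 with edgeR as described. They also numbered 0 with the size factors of DESeq2, with scaling by total counts alone and in 1 fit over all libraries. With 10 counts required in every library 9 were called (1.07% of all genes lower), and with no count filter 16 (1.32%). DESeq2 called 29 (6.3% of genes with an adjusted p) and the replicate block 28 (6.55%). In all 4 of the settings with calls, 9 members were called. The replicate numbers did not pair *xpo-1* RNAi with control libraries, whose deviations correlated at 0.0636 in total and 0.0282 in polysome RNA. Polysome and total libraries of the same number correlated at -0.348 in *xpo-1* RNAi and 0.779 in control, so that the numbers go together in control only. A block with the *xpo-1* RNAi numbers crossed, chosen after seeing the data, called 36 (35 lower, with 9.66% of all genes lower).

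With 10 counts in every library, *sdha-1* (-0.00892) and *sdha-2* (-0.0138) turned negative in polysome RNA, *sdhb-1* (-0.0176) in total RNA, and 5 interactions turned positive, among them those of *ucr-2.1* (0.11), *ucr-2.2* (0.13), *ucr-2.3* (0.0620) and *asb-2* (0.0742). *sdhb-1* in total RNA was also below 0 with DESeq2 (-0.0071), its size factors (-0.00705) and the replicate block (-0.00477), and *sdhd-1* above 0 in 1 fit over all libraries (0.0114) and with no count filter (0.0101). The causes were not tested. Without mitochondrial counts, the members' share of monosome counts was 1.38% in *xpo-1* RNAi and 1.496% in control.

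Leaving out each library in turn gave 11 to 34 members called in total RNA (medians -0.70 to -0.46), 35 to 51 in polysome RNA (medians -1.49 to -1.29) and 0 to 19 in the interaction (medians -0.83 to -0.41). Single values that changed sign were *cox-15* (-0.0753 to 0.19), *sdhb-1* (-0.14 to 0.13) and *sdhd-1* (-0.18 to 0.14) in total RNA, *nuo-5* (-0.17 to 0.0626), *sdha-1* (-0.10 to 0.22) and *sdha-2* (-0.15 to 0.23) in polysome RNA, and, for the interaction, *asb-2* (-0.35 to 0.26), *atp-1* (-0.0731 to 0.46), *cox-4* (-0.26 to 0.30), *cox-6C* (-0.52 to 0.13), *mev-1* (-0.45 to 0.12), *ucr-2.1* (-0.32 to 0.29), *ucr-2.2* (-0.29 to 0.33) and *ucr-2.3* (-0.24 to 0.30). Each member had at least 10 counts in all 11 libraries, and the lowest count was 113 (*cox-17* in *xpo-1* RNAi polysome replicate 1). The part of depth was not tested. Each fit with a library left out had a single library in a group. Its count of calls is therefore not compared with all genes here. Less the median of all genes, the medians of the members in those fits lay between -0.71 and -0.43 in total RNA. They lay between -1.51 and -1.26 in polysome RNA, and between -0.93 and -0.68 for the interaction. The single *xpo-1* RNAi monosome library and 2 libraries elsewhere limit the precision.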

Other observations

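Other mitochondrial gene groups were measured with the same fits, in which 16.9% of all genes were called lower in total RNA and 22.4% in polysome RNA. Of 15 protein import genes, 5 fell in total RNA (median log2 fold change -0.44) and 11 in polysome RNA (median -1.15), and none rose. Of 4 mitochondrial carriers tested, 3 fell in each kind of RNA (medians -1.95 and -2.23), among them the adenine nucleotide translocator *ant-1.1* (-0.99 in total and -1.77 in polysome RNA), which exchanges ADP and ATP across the inner membrane. The other 2 that fell, *ant-1.3* and *ant-1.4*, were at low levels, with 1.64 and 1.32 CPM for *ant-1.3* in *xpo-1* RNAi total RNA, against 6.47 and 15.7 CPM in control total RNA, and 0.307 and 0.0825 CPM for *ant-1.4*, against 4.99 and 13.8 CPM. Of 15 mitochondrial chaperones and proteases, 3 fell in total RNA (20%, near the share of all genes) and none rose (median -0.27), while in polysome RNA 6 fell and 1 rose (median -0.36). The chaperonin gene *hsp-60* had -2.36 in total RNA (SE 0.18, edgeR adjusted p 6.91e-05) and -1.60 in polysome RNA (SE 0.20, adjusted p 0.000743). The protease gene *ymel-1* was the 1 that rose in polysome RNA (1.27, SE 0.22, adjusted p 0.00289). Of 8 genes of ubiquinone synthesis, 2 fell in total RNA and 3 in polysome RNA (medians -0.25 and -0.37), and none rose. Of 17 genes of glycolysis, none fell and 1 rose in total RNA (median -0.15), the pyruvate kinase gene *pyk-2* (0.69, SE 0.21, adjusted p 0.0307), and 3 fell and 2 rose in polysome RNA (median 0.10).

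Transcripts of the mitochondrial genome, which mitochondrial ribosomes translate, differed in the monosome fraction by more than in the others. Its 12 protein-coding genes took 0.477% of the counts in the *xpo-1* RNAi monosome library, against 3.64% and 3.10% in the control monosome libraries. In polysome RNA they took 0.0909% and 0.139% in *xpo-1* RNAi, against 0.0969% and 0.231% in control, so that the groups overlapped. As *xpo-1* RNAi monosome RNA has 1 library, the difference was not tested.

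Marker lists were also counted by test. In total RNA 31 of 32 sperm markers tested, 5 of 7 embryo markers, 4 of 6 muscle markers, 2 of 8 intestine markers and 1 of 20 germline markers were called lower, and 1 intestine and 1 germline marker higher. Of all genes tested in total RNA, 16.9% were called lower and 12% higher. In polysome RNA 31 of 31 sperm markers, 6 of 7 embryo markers, 1 muscle and 2 intestine markers were lower, and 5 intestine and 4 germline markers higher. Of all genes tested in polysome RNA, 22.4% were called lower and 15.5% higher.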
